A study of Mus musculus with 5 samples.

Results

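The annexins are described here in whole kidneys of mice aged 8 weeks. They were taken by symbol from the deposited table of gene expression, and all 10 members sought (Anxa1 to Anxa7, Anxa9, Anxa11 and Anxa13) were found among its 23997 rows. The table holds FPKM, a fragment count corrected for transcript length and for the mapped total of the library, so levels of different genes can be set side by side. The study compared 3 libraries labelled as uninduced controls (control 0, 1 and 2) with 2 labelled as Pkd1 knockouts (SKO 0 and SKO 1, after their titles), to look at metalloproteinases in the remodelling of tubule basement membranes and the cystic widening of tubules. Pkd1 encodes polycystin-1, whose loss makes kidney tubules form cysts. The design text calls the mutants PkdTKO. The sources used here do not give the driver of the deletion, the inducing treatment, the strain or whether each library came from 1 animal. Each p-value therefore measures only the spread between these libraries, which may be technical.

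Annexins are soluble proteins that bind membranes rich in acidic phospholipids, such as phosphatidylserine, when calcium rises. Each has a conserved core of repeated domains that holds the calcium sites and a variable N-terminal tail that sets its partners, among them the small calcium-binding S100 proteins. They are known for sealing torn plasma membranes, for linking membranes to the actin cortex, for vesicle traffic and, outside the cell, for curbing inflammation and clotting. In the kidney they are made by tubule epithelium as well as by endothelium, fibroblasts and leukocytes, so a whole-organ level adds up many cell types.

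The 2 knockout libraries differed from each other in ways that bear on every result below. Pkd1 itself was at 3.22, 3.51 and 3.49 FPKM across the controls, 2.72 in SKO 0 and 3.60 in SKO 1. It therefore left the labels unchecked, and directions below are those of libraries so labelled. Y-linked transcripts stood at 96.5% to 104.7% of their mean in the controls, at 39.1% in SKO 0 and at 0.0234% in SKO 1. The X-linked transcript Xist had 0.0275, 0.0223 and 0.0257 FPKM in the controls, 30.8 in SKO 0 and 80.3 in SKO 1. SKO 0 thus held both Xist and Y-linked RNA, and whether it pools animals was not tested. The sex of the RNA and the genotype cannot be told apart. The macrophage markers, 11 in the table, summed to an FPKM of 104.1 to 116.2 in the controls, 468.7 in SKO 0 and 158.4 in SKO 1, and all 11 were above every control in both. The tubule injury markers, 15 that could be summed, came to 383.0 to 400.0 in the controls, 1014 in SKO 0 and 325.3 in SKO 1. Of these, 14 were above every control in SKO 0, while in SKO 1 8 were above and 5 below. Over the 12640 rows tested below, 34.2% were above every control in SKO 0 and 21.9% in both knockout libraries. In SKO 1 38.4% of those rows were above every control and 38.5% below. Kidney markers were present, but the proximal tubule genes Lrp2 and Slc34a1 were listed at 0 in every library, which can be a failed estimate. None of the 10 annexins described was listed at 0 in any library.

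One of the 10 annexins, Anxa6, passed the test over both knockout libraries, as higher. The other 9 did not pass, though Anxa1, Anxa2, Anxa3 and Anxa5 stood well above the controls in SKO 0 and closer to them in SKO 1. Without passing, Anxa3 was higher and Anxa9 lower than every control in both knockout libraries. The test was limma on log2(FPKM + 1) over 12640 rows with Benjamini-Hochberg adjustment and a threshold of 0.05. Over those rows 6.34% were called, with 2.73% higher and 3.62% lower (345 and 457 genes), or 454 and 266 genes when libraries were rescaled to a common sum. With 10 members, 1 call is the smallest count above 0, so the share of annexins called cannot be told from that background. The median log2 difference was 0.24 over the annexins and -0.02 over all tested rows.

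Promoter sequence is shown for 4 members that stand for the patterns found: Anxa2 and Anxa5, high in SKO 0, Anxa9, low in both knockout libraries, and Anxa11, close to the controls in both. RefSeq promoter windows (GRCm38.p6, the assembly of mm10) were matched by symbol for 7 of the 10 annexins. Anxa3, Anxa6 and Anxa13 had no entry. Each line runs 5′ to 3′ along the gene's strand and ends before the first annotated transcript start at that promoter, and capitals mark the motifs found among those searched. The Anxa9 window belongs to the downstream of its 2 RefSeq starts, and the Anxa5 window overlaps an exon of 1810062G17Rik.
Anxa2 (chr9:69453433-69453619, plus strand): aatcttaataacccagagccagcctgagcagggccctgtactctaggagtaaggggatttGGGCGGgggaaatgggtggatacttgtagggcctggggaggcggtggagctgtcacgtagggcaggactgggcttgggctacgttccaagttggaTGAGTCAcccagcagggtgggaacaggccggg
Anxa5 (chr3:36475895-36476137, minus strand): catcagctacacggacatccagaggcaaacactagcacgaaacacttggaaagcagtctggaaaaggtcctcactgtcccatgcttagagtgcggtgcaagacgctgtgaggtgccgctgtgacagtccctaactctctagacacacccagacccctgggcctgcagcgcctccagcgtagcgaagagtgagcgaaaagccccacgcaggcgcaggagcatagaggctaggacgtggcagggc
Anxa9 (chr3:95307193-95307442, minus strand): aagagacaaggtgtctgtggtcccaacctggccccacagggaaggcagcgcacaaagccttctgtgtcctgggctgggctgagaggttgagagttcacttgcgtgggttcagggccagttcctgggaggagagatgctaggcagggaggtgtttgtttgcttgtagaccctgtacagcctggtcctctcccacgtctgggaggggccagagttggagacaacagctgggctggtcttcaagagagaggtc
Anxa11 (chr14:25841905-25842154, plus strand): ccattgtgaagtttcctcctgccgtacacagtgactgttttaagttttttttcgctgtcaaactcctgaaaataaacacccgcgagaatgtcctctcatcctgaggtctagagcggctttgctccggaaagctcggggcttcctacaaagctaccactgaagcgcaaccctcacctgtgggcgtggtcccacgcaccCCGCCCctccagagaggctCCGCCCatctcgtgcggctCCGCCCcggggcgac
The motifs, searched on both strands in the 250 bases before each RefSeq start, were TGACTCA (bound by AP-1 factors), GGGCGG (the GC box), TATAAA, TTCNNNGAA (bound by STAT factors) and CATTCC (bound by TEAD factors). TGACTCA was present before Anxa2, as its reverse complement starting 95 bases ahead of the RefSeq start, and before no other annexin with an entry. It occurs in 4.46% of all 32851 windows. GGGCGG was present before Anxa2 (3 matches, 1 of them in the stretch printed), Anxa7 and Anxa11 (3 matches, all printed), against 32.7% of all windows, and TATAAA before Anxa1 and Anxa2, against 12.4%. CATTCC was found before Anxa1 alone, against 12.6% of all windows, and TTCNNNGAA before none of the 7, against 7.02%. The whole Anxa1 window lies inside the Anxa1 gene as annotated by GENCODE M21, so its matches fall within the gene. The Anxa2 matches that were not printed also lie inside the annotated Anxa2 gene. A match is a string of letters and no evidence of binding.

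The annexins spanned a wide range of levels in control kidneys. Anxa5 and Anxa11 were highest, at means of 69.1 ± 4.61 and 68.6 ± 3.32 FPKM (SD, n = 3), and their ranges over the controls overlapped. Anxa4 followed at 58.6 ± 3.20, then Anxa2 at 53.2 ± 5.78 and Anxa7 at 52.8 ± 3.502. Anxa4 and Anxa2 overlapped in range, as did Anxa2 and Anxa7. Anxa6 stood clear of its neighbours at 26.7 ± 1.84, followed by Anxa1 at 10.8 ± 1.21 and Anxa3 at 10.1 ± 0.992, which overlapped each other. Anxa13 at 5.98 ± 0.563 and Anxa9 at 3.34 ± 0.301 were lowest and did not overlap with their neighbours. The coefficient of variation over the controls ran from 4.83% for Anxa11 to 11.2% for Anxa1. In SKO 0 Anxa2 moved from the fourth place to the first and took 22.0% of the summed FPKM of the 10 genes, against 13.7% to 15.7% in the controls and 14.8% in SKO 1. The 10 genes summed to 342.4 to 370.7 in the controls, 522.8 in SKO 0 and 369.3 in SKO 1, which puts SKO 1 within the range of the controls. As a share of all FPKM in the library, the 10 genes made up 0.0678% to 0.0734% in the controls, 0.106% in SKO 0 and 0.0798% in SKO 1, so by this measure both knockout libraries lay above every control. Of the remaining family members in the table, Anxa8 was below 0.505 in every library and Anxa10 was listed at 0 in all 5.

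**Figure D1:**
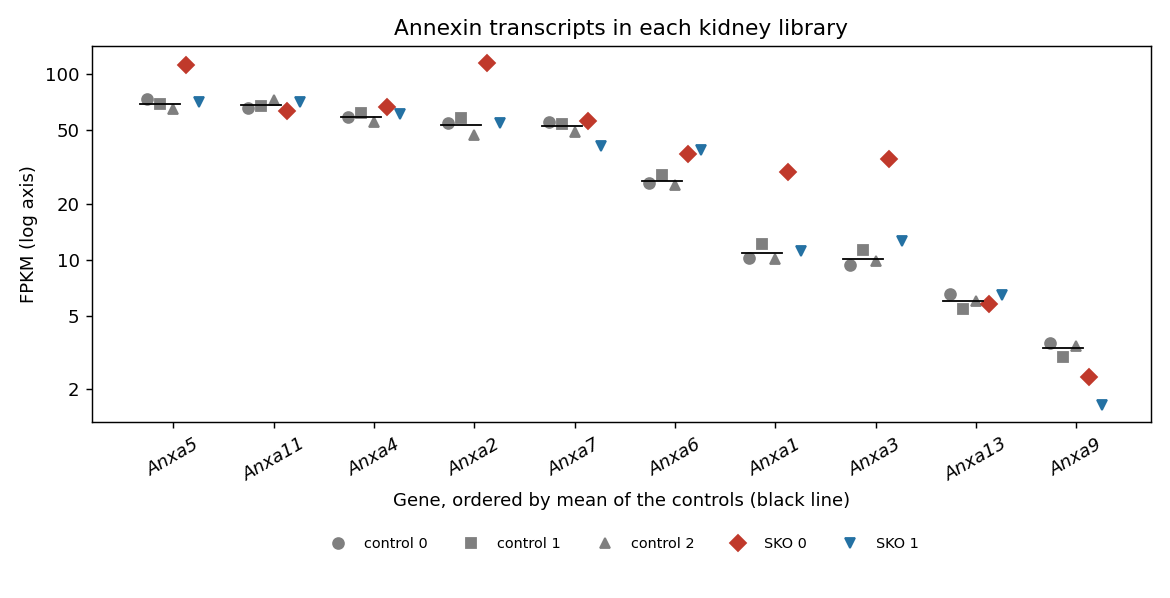
FPKM of each annexin (log axis) in each of the 5 libraries, with the genes ordered by their mean in the 3 controls (black line, grey points). SKO 0 (red) stands apart from the other 4 libraries for Anxa1, Anxa2, Anxa3 and Anxa5. Both knockout libraries stand above the controls for Anxa3 and Anxa6 and below them for Anxa9.

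Anxa6 was the only member that passed the test over both knockout libraries. Annexin A6 has a longer core with more repeats than the other annexins and acts in endocytic traffic, cholesterol handling and membrane repair. Its FPKM was 26.0, 28.8 and 25.3 in the 3 controls, 37.4 in SKO 0 and 39.2 in SKO 1. The groups did not overlap, and the knockout libraries lay closer to each other than the highest and lowest controls did on the log2 scale (0.07 against 0.18). The fitted log2 difference was 0.51 (SE 0.0824, 95% interval 0.30 to 0.72, limma adjusted p = 0.0358). SKO 0 alone gave 0.47 (adjusted p = 0.0403) and SKO 1 alone 0.54 (adjusted p = 0.04995), each with the lone library assumed to vary like the controls. The call was lost without control 0, control 1 or control 2 (adjusted p = 0.153, 0.0738 and 0.188), when no row was filtered out (0.0800) and in the fit blocked on replicate number (0.245), while the difference stayed between 0.47 and 0.60 over the 15 alternatives. The summed macrophage, lymphocyte, fibroblast and endothelial markers were also above every control in both knockout libraries. In SKO 0 and SKO 1 the macrophage sums were 4.25 and 1.44 times the control mean. Fibroblast sums were 2.29 and 1.23 times that mean, and endothelial sums 1.06 and 1.08 times. The 10 lymphocyte markers summed to 4.81 to 5.98 FPKM in the controls, 13.9 in SKO 0 and 7.55 in SKO 1. Of them, 10 and 9 were above every control, against 34.2% and 38.4% of all tested rows. The part of these cell types in the Anxa6 result was not tested. In whole kidney a change in the number of cells of a type and a change in RNA per cell cannot be told apart.

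Among the members with roles in inflammation and at the leukocyte or endothelial surface, Anxa1 and Anxa3 were high in SKO 0. Annexin A1, also called lipocortin-1, is induced by glucocorticoids and limits inflammation through formyl peptide receptors. Anxa1 measured 10.2, 12.2 and 10.1 FPKM in the controls, 29.7 in SKO 0 and 11.2 in SKO 1, which is 274% and 104% of the control mean. SKO 0 was thus above every control and SKO 1 inside their range. The log2 difference over both was 0.72 (SE 0.381, 95% interval -0.24 to 1.67, limma adjusted p = 0.272), with 1.38 (SE 0.129, adjusted p = 0.00687) for SKO 0 alone and 0.05 (SE 0.129, adjusted p = 0.797) for SKO 1 alone.

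Annexin A3 is abundant in neutrophils and is also found in endothelium. Levels of Anxa3 were 9.32, 11.2 and 9.85 FPKM in the controls, 35.1 in SKO 0 and 12.6 in SKO 1. Both knockout libraries lay above every control, SKO 0 by a wide margin at 346% of the control mean and SKO 1 at 124%. This was the largest positive difference in the family (log2 1.00, SE 0.401, 95% interval -0.01 to 2.003, limma adjusted p = 0.176). For SKO 0 alone it was 1.70 (adjusted p = 0.0035) and for SKO 1 alone 0.29 (adjusted p = 0.170). In SKO 0 Anxa3 ranked 164 and Anxa1 ranked 278 from the top among the 12640 tested rows by difference from the control mean, and in SKO 1 they ranked 1730 and 5355. Of 7 neutrophil markers in the table, Mpo and Elane, which encode granule enzymes, were listed at 0 in every library. The 7 summed to 1.35 to 1.52 FPKM in the controls, 2.24 in SKO 0 and 1.18 in SKO 1. This sum lies near the floor, since 6 of the 7 were under an FPKM of 1 in every library. In SKO 0, 5 were above every control and 0 below, against 34.2% and 43.9% of all tested rows. In SKO 1 the counts were 2 and 2, against 38.4% and 38.5%.

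Among the members tied to the cell cortex and to phosphatidylserine, Anxa2 and Anxa5 showed the same pattern at smaller size. Annexin A2 forms a complex with S100A10 that links membranes to actin and binds plasminogen at the cell surface. Anxa2 was at 54.9, 58.0 and 46.8 FPKM in the controls, 114.9 in SKO 0 and 54.5 in SKO 1. Its level in SKO 0 was 216% of the control mean, and SKO 1 fell within the controls' range. Over both libraries the log2 difference was 0.57 (SE 0.314, 95% interval -0.22 to 1.36, limma adjusted p = 0.286). Alone, SKO 0 gave 1.10 (adjusted p = 0.0143) and SKO 1 gave 0.04 (95% interval -0.34 to 0.41, adjusted p = 0.864).

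Annexin A5 binds exposed phosphatidylserine with high affinity, which is why it is used to stain dying cells, and it hinders clotting on such membranes. The 3 controls had 73.8, 68.8 and 64.6 FPKM of Anxa5, SKO 0 had 112.0 and SKO 1 had 70.5. SKO 0 reached 162% of the control mean, and SKO 1 again lay inside the range of the controls. The log2 difference was 0.36 over both (SE 0.201, 95% interval -0.14 to 0.86, limma adjusted p = 0.289), 0.69 for SKO 0 alone (adjusted p = 0.0193) and 0.03 for SKO 1 alone (adjusted p = 0.841).

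With SKO 0 alone against the controls, 5 of 10 annexins were called higher and 0 lower, namely Anxa1, Anxa2, Anxa3, Anxa5 and Anxa6, against 11.5% higher and 9.09% lower of all tested rows. With SKO 1 alone, Anxa6 was called higher and Anxa9 lower, against 4.09% and 4.25%. Both fits share the 3 controls. In SKO 0, 7 of 10 annexins were above every control and 2 below, against 34.2% and 43.9% of all tested rows, and in SKO 1 the counts were 2 and 2, against 38.4% and 38.5%. SKO 0 was not tested against SKO 1. On the log2 scale SKO 0 exceeded SKO 1 by 1.33 for Anxa1, 1.06 for Anxa2, 1.41 for Anxa3 and 0.66 for Anxa5, while the highest and lowest controls were 0.26, 0.30, 0.25 and 0.19 apart.

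**Figure D2:**
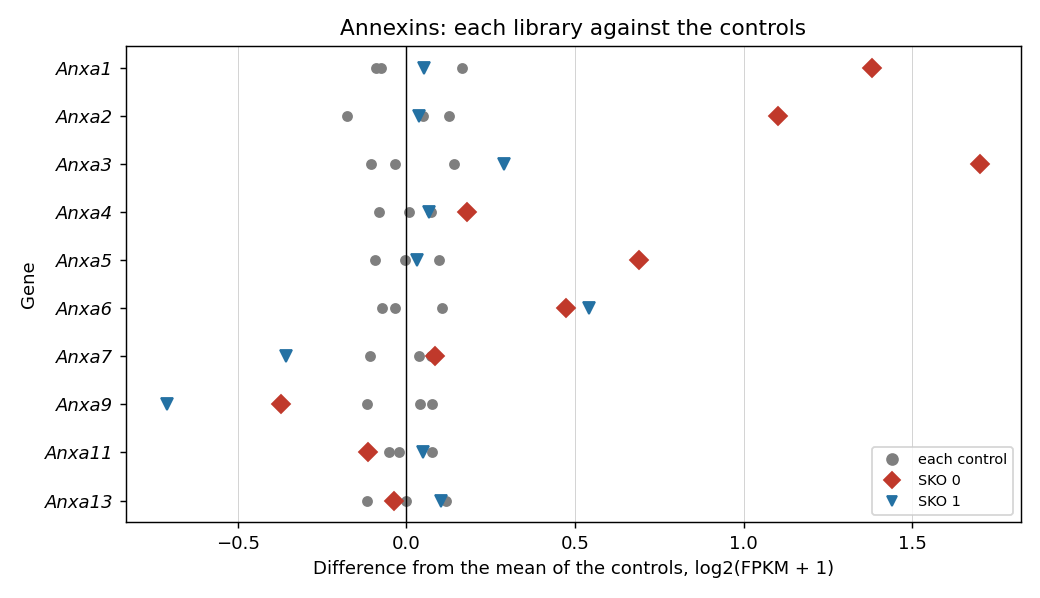
Difference of each library from the mean of the 3 controls on log2(FPKM + 1), for each annexin (grey, controls; red, SKO 0; blue, SKO 1). SKO 0 lies at 1.70 for Anxa3, 1.38 for Anxa1, 1.10 for Anxa2 and 0.69 for Anxa5, where SKO 1 lies at 0.29, 0.05, 0.04 and 0.03, and the 2 coincide near 0.5 for Anxa6.

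Marker levels of several cell types moved with the annexins that were high in SKO 0. Summed levels there were 4.25 times the control mean for macrophage markers, 2.61 times for tubule injury markers, 2.57 times for 12 cell division genes and 2.29 times for 10 fibroblast markers. In SKO 1 the same sums were 1.44, 0.837, 1.17 and 1.23 times the control mean. All 12 cell division genes and 7 of the 10 fibroblast markers exceeded every control in SKO 0, against 34.2% of all tested rows. Endothelial markers, 9 genes, summed to 220.7 to 227.0 FPKM in the controls, 236.9 in SKO 0 and 241.3 in SKO 1. Of the 9, 4 were above and 3 below every control in SKO 0, against 7 and 0 in SKO 1. Over all tested rows the shares above and below were 34.2% and 43.9% in SKO 0, and 38.4% and 38.5% in SKO 1. Erythroid markers, 5 genes, summed to 19.4 to 45.5 FPKM in the controls, 131.6 in SKO 0 and 8.33 in SKO 1. The part of these cell types in the annexin levels was not tested.

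**Figure D3:**
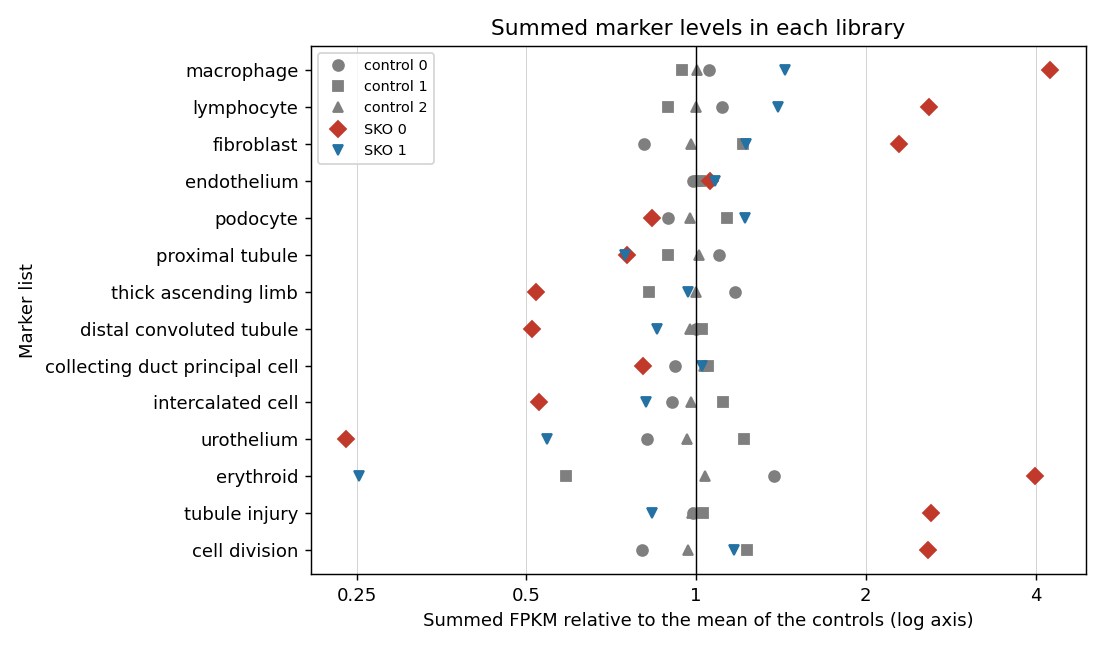
Summed FPKM of marker lists in each library, relative to the mean of the 3 controls (log axis). The neutrophil list and the list of Xist and Y-linked genes are not drawn. SKO 0 (red) lies highest for macrophage markers (4.25 times) and lowest for urothelial markers (0.240 times), and SKO 1 (blue) lies nearer to 1 than SKO 0 for both lists.

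Anxa9 was the lowest member in control kidneys and lay below every control in both knockout libraries. Annexin A9 is an unusual family member whose calcium sites are degenerate. Anxa9 had 3.56, 2.99 and 3.45 FPKM in the controls, 2.34 in SKO 0 and 1.64 in SKO 1. The knockout libraries thus stood at 70.2% and 49.3% of the control mean. The log2 difference was -0.54 (SE 0.134, 95% interval -0.88 to -0.21) and did not pass (limma adjusted p = 0.0744). SKO 1 alone passed at -0.71 (adjusted p = 0.0352) and SKO 0 alone did not at -0.37 (adjusted p = 0.071). Exons of Anxa9 overlap those of 6330562C20Rik on the same strand and of Mindy1 on the opposite strand. Reads from these genes may not be separable, and the strandedness of the counting is not given. Among the marker lists, urothelial, distal convoluted tubule and intercalated cell sums were also below every control in both knockout libraries. The 5 distal convoluted tubule genes did not move together in SKO 1. There 3 were below and 1 above every control, against 38.5% and 38.4% of all tested rows. Slc12a3 had 166.4, 148.9 and 173.1 FPKM in the controls, 123.6 in SKO 0 and 224.9 in SKO 1. Calb1 had 263.7, 288.1 and 244.9 in the controls, 100.5 in SKO 0 and 148.8 in SKO 1. The 5 urothelial genes summed to 15.6 to 23.2 FPKM in the controls, 4.56 in SKO 0 and 10.4 in SKO 1. The sum of 11 proximal tubule genes, 1882 to 2317 in the controls, 1589 in SKO 0 and 1581 in SKO 1, rested on Slc7a13 for its low value in SKO 1. That gene, a transporter of the last proximal segment, had 630.8, 305.9 and 523.9 in the controls, 174.6 in SKO 0 and 1.83 in SKO 1. Without it the sum was 1576 to 1686 in the controls, 1415 in SKO 0 and 1579 in SKO 1, with Lrp2 and Slc34a1 among its 10 genes listed at 0, so SKO 1 lay inside the control range. Cubn and Slc22a8 of the same list exceeded every control in both knockout libraries. The part of these cell types in the Anxa9 level was not tested.

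The remaining 4 members did not pass in any of the 3 fits. Annexin A4, a protein of secretory and absorptive epithelia, is encoded by Anxa4, which had 58.9, 61.6 and 55.3 FPKM in the controls, 66.4 in SKO 0 and 61.3 in SKO 1. SKO 0 was just above the highest control (log2 0.12 over both, SE 0.0826, 95% interval -0.08 to 0.33, limma adjusted p = 0.374). Anxa7, which encodes synexin, a protein that aggregates secretory vesicles, had 55.5, 54.1 and 48.9 in the controls, 56.0 in SKO 0 and 40.9 in SKO 1. The 2 knockout libraries thus fell on opposite sides of the control range (log2 -0.14, 95% interval -0.51 to 0.23, adjusted p = 0.582), and SKO 1 alone gave -0.36 (adjusted p = 0.0938).

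Anxa11, whose product binds the calcium sensor encoded by Pdcd6 and associates with RNA granules, had 66.0, 67.4 and 72.3 FPKM in the controls, 63.2 in SKO 0 and 70.9 in SKO 1. The fitted difference of -0.03 (95% interval -0.25 to 0.18, limma adjusted p = 0.834) was positive when libraries were rescaled to a common sum (0.05) or quantile normalized (0.07). Anxa13, an epithelial member found in gut and kidney, had 6.55, 5.42 and 5.96 in the controls, 5.79 in SKO 0 and 6.47 in SKO 1. Both knockout libraries lay inside the control range (log2 0.03, 95% interval -0.21 to 0.28, adjusted p = 0.857), and the sign was negative after quantile normalization. The intervals bound a change over both libraries to at most 0.33 on the log2 scale in size for Anxa4, Anxa11 and Anxa13. GENCODE M21 gives the Anxa13 locus as a processed transcript, whereas the other 9 members are protein coding.

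The groups did not overlap for 3 of the 10 annexins, Anxa3 and Anxa6 with the knockout libraries higher and Anxa9 with them lower. Over all tested rows the share without overlap was 48.2%, with 21.9% higher and 26.3% lower. With 3 libraries against 2, an exact permutation test has 0.1 as its smallest p, and it gave 0.1 (two-sided) for each of these 3 genes.

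The members are scattered over the genome. In mm10 (GENCODE M21), Anxa5 lies on chromosome 3 from 36448923 to 36475894 and Anxa9 on the same chromosome from 95296096 to 95307176, both on the minus strand. Chromosome 14 carries Anxa7 (20455260 to 20480133, minus strand) and Anxa11 (25842156 to 25886804, plus strand). Anxa1 lies on chromosome 19 from 20373428 to 20390944 on the minus strand. Anxa2 lies on chromosome 9 from 69453620 to 69491795 and Anxa3 on chromosome 5 from 96793339 to 96845966, both on the plus strand. Anxa4 (chromosome 6, 86736840 to 86793584), Anxa6 (chromosome 11, 54979108 to 55033445) and Anxa13 (chromosome 15, 58341471 to 58389244) are on the minus strand. The 4 genes that stood high in SKO 0 and near the controls in SKO 1 thus lie on 4 chromosomes. Besides Anxa9, exons overlap those of another annotated gene for Anxa2 (Gm16144), Anxa4 (Gm44036) and Anxa11 (Anxa11os) on the opposite strand and for Anxa3 (Gm42603) on the same strand.

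The S100 proteins are small calcium sensors, several of which bind annexin tails. Of 16 in the table, 9 were tested, and 0 of them passed in either direction, against 6.34% of all tested rows. By limma 3 of the 9 had an unadjusted p under 0.05, against 29.1% of all tested rows. Their median log2 difference from the controls was 0.66 in SKO 0 and -0.11 in SKO 1. S100a10, which encodes the partner of annexin A2, had 172.6, 225.1 and 197.8 FPKM in the controls, 311.9 in SKO 0 and 256.0 in SKO 1. Both knockout libraries exceeded every control (log2 0.52, SE 0.149, limma adjusted p = 0.0986). S100a11, whose product binds annexin A1, had 431.4, 461.4 and 415.8 in the controls, 735.6 in SKO 0 and 350.4 in SKO 1. Its 2 knockout libraries fell on opposite sides of the controls (log2 0.22, adjusted p = 0.677). S100a6, another annexin partner, had 33.03, 50.6 and 48.7 in the controls, 97.3 in SKO 0 and 39.8 in SKO 1, and S100a4 had 7.38, 10.8 and 8.97 in the controls, 14.7 in SKO 0 and 10.3 in SKO 1. Neither passed (adjusted p = 0.441 and 0.230). S100g, which encodes the calcium-binding protein calbindin-D9k, had 2238, 3297 and 2412 in the controls, 767.7 in SKO 0 and 1293 in SKO 1. Both knockout libraries lay below every control, and the largest difference among the tested S100 genes (log2 -1.39, SE 0.279, limma adjusted p = 0.0511) narrowly missed the threshold. It passed with a pseudocount of 0.1 (0.0484), at a mean FPKM of at least 5 (0.0409) and without the rows listed at 0 (0.0474). SKO 0 alone (log2 -1.76) also passed, which makes 4 of the 15 alternatives. S100g did not pass without control 0, control 1 or control 2 (limma adjusted p = 0.160, 0.124 and 0.205). Nor did it pass with no filter (0.238), in the blocked fit (0.153) or with SKO 1 alone (log2 -1.01). With SKO 0 alone S100a11, S100a14 and S100a16 were also called, as higher, against the same 11.5% higher and 9.09% lower of all rows.

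Other partners and receptors gave 2 that rose and 0 that fell of 6 tested, against 2.73% and 3.62% of all tested rows. Ahnak encodes a giant scaffold that binds the annexin A2 and S100A10 complex, and it rose from 11.7, 12.7 and 13.6 FPKM in the controls to 20.2 and 20.4 in SKO 0 and SKO 1 (log2 0.64, SE 0.0808, limma adjusted p = 0.0241). Plau, which encodes the urokinase that activates plasminogen, had 302.3, 302.8 and 305.0 in the controls and rose to 522.4 and 446.0 (log2 0.67, SE 0.0964, adjusted p = 0.0285). The knockout libraries lay above every control for both genes. Without control 0 or control 2 neither call held, nor did it without control 1, with no filter on low values or in the fit blocked on replicate number. Over the 15 alternatives the adjusted p ran from 0.0185 to 0.196 for Ahnak and from 0.00772 to 0.230 for Plau. Pdcd6, the partner of annexins A7 and A11, had 62.2, 61.0 and 56.5 in the controls, 60.5 in SKO 0 and 45.3 in SKO 1 (adjusted p = 0.402). Sri, which encodes sorcin, another annexin A7 partner, had 61.8, 64.3 and 58.4 in the controls, 69.8 in SKO 0 and 64.3 in SKO 1 (adjusted p = 0.366). Fpr2, a formyl peptide receptor for annexin A1, was below the level tested, at 0.230, 0.304 and 0.184 in the controls, 1.05 in SKO 0 and 0.490 in SKO 1.

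**Figure D4:**
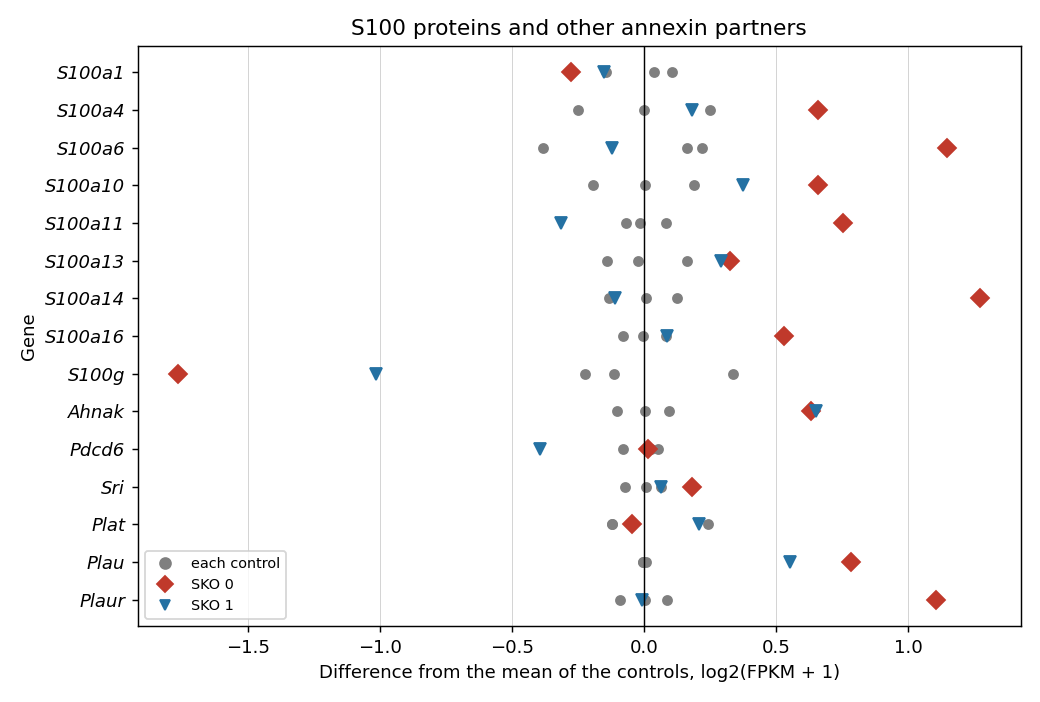
Difference of each library from the mean of the 3 controls on log2(FPKM + 1), for the tested S100 genes and other annexin partners (grey, controls; red, SKO 0; blue, SKO 1). Both knockout libraries lie to the right of the controls for S100a10, S100a13, S100a16, Ahnak and Plau, and to the left for S100a1 and S100g. They lie on opposite sides for S100a11.

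Lists of neighbouring functions gave calls near the background share, 6.34% of all tested rows. Of 12 tested plasma membrane repair genes 1 rose, 0 fell and 11 did not pass. It was Myof, which encodes myoferlin, a calcium-binding membrane repair protein, at 5.53, 7.21 and 6.42 FPKM in the controls, 15.9 in SKO 0 and 15.5 in SKO 1 (log2 1.18, SE 0.110, limma adjusted p = 0.0124). Like Anxa6, it reached similar levels in both knockout libraries. The call was lost without control 0, without control 2, with no filter and in the blocked fit, was kept without control 1, and the adjusted p ran from 0.0105 to 0.164. Dysf, which encodes the related dysferlin, had 3.54, 3.33 and 3.63 in the controls, 5.47 in SKO 0 and 4.38 in SKO 1 (adjusted p = 0.0868). Of 10 tested genes of phosphatidylserine exposure and recognition only Atp11a was called, and it was listed at 0 in all 3 controls, with 164.1 and 64.7 in SKO 0 and SKO 1, so no direction was drawn from it. Of 8 tested phospholipases A2, enzymes that annexins were first described to inhibit, 0 passed, with 3 at an unadjusted p under 0.05 by limma, against 29.1% of all tested rows. Among them Pla2g7, above every control in both knockout libraries, narrowly missed the threshold (log2 0.61, limma adjusted p = 0.0503). It passed in 7 of the 15 alternatives, with an adjusted p of up to 0.295 over them. Over these 3 lists the median log2 differences were 0.09, 0.15 and 0.15.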

How the data were processed

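The members and gene lists were chosen with earlier results of these data known. The named genes were all 10 annexins, every partner-list gene that passed, and S100a10, S100a11, S100a6, S100a4, Ahnak, Pdcd6, Sri and Fpr2. S100a1, S100a13, S100a14, S100a16, S100g, Dysf, Pla2g7, Slc7a13, Cubn, Slc22a8, Slc12a3, Calb1 and Xist, and the proximal tubule sum without Slc7a13, were chosen after their values were seen.

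The authors deposited 1 table of FPKM, with 1 column per library and 0 columns left unmapped. Per the submitters' processing notes, bcl2fastq and mm10 were used. The sources used here do not give the aligner, FPKM program, annotation or strandedness. Per the labels' protocols, libraries were made from TRIzol-extracted total RNA with an Illumina mRNA-seq kit.

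Rows whose FPKM averaged at least 1 were tested two-sided with limma 3.58.1 in R 4.3.3 (moderated variances with a trend) on log2(FPKM + 1), which understates the change of low genes, after a check on simulated data. Adjusted p-values come from limma, by Benjamini-Hochberg over every row tested. Intervals are at 95%. Marker sums leave out genes listed at 0 in some libraries and above an FPKM of 10 in others (Slc27a2, Umod, Spp1). Python 3.11.15, pandas 2.3.3, scipy 1.17.1 and matplotlib 3.10.9 were used.

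Depth is not stated. In genes with 1 annotated transcript over 2 kb the lowest FPKM lay near whole multiples of a step (80.6% to 87.3% within 0.15 of a whole number, up to about 3 steps). If a step is 1 fragment, libraries held about 91880000 to 215200000 fragments, and the fewest fragments behind an annexin value (Anxa9 in SKO 0) were about 403.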

Additional observations from a re-analysis of the deposited data

How the results depend on the processing

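The alternatives were leaving out each library, leaving out rows listed at 0, a block on replicate number, robust variances or variances without a trend, quantile normalization, scaling by median ratios or to TPM, a minimum mean FPKM of 5 or none, and a pseudocount of 0.1. Of 149 refitted annexin differences 130 kept their sign and side of the threshold. The count of annexins called higher, 1, was 0 with no filter, 0 with the replicate block, and 0 to 5 with 1 library left out. The count called lower, 0, was 0 to 1 with 1 library left out. The count over all genes, 802, was 247 with no filter, 28 with the replicate block, and 36 to 2599 with 1 library left out (37, 155 and 36 without control 0, 1 and 2, and 2599 without SKO 1). The 4 partner-list calls became 1 with no filter, 0 with the replicate block, and 1 to 14 with 1 library left out.

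Signs reversed in 9 cases, none of them called. Anxa7 was 0.085 without SKO 1 and ranged from -0.358 to 0.085 with 1 library left out. Anxa11 was 0.048 after TPM rescaling, 0.065 after quantile normalization, 0.005 with the replicate block, and 0.005 and 0.049 without control 2 and SKO 0, with a range of -0.115 to 0.049. Anxa13 was -0.035 after quantile normalization, and -0.026 and -0.037 without control 1 and SKO 1, with a range of -0.037 to 0.102. No pairing behind the replicate numbers is stated. Deviations from the group means correlated at 0.086 for number 0 and 0.002 for number 1 across genes. With 2 knockout libraries the deviations of one mirror those of the other, so these values cannot decide whether the block stands for a pairing. The cause of the changes was not tested.

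The depth is known only as an estimate, and the number of libraries limits the precision, since 1 library decides several calls.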
